A study of Homo sapiens with 6 samples.

Results

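The genes described here are 10 components of the desmosome and its plaque, chosen as a named list by their function and found by NCBI Gene ID among the 16623 genes of the expression files: JUP, DSP, DSG2, DSC2, DSC3, PKP1, PKP2, PKP3, PKP4 and PPL. All 10 were found. They were measured by RNA-seq in MDA-MB-231, a triple-negative breast cancer cell line with mesenchymal features that was grown as an adherent culture. Cells received DMSO, the solvent, or the histone deacetylase (HDAC) inhibitor PCI-24781 at 100 nM or 200 nM, and RNA was taken after 24 h or 48 h. This gave 6 libraries, 1 for each combination of treatment and time. Without replicates, differences between libraries could not be tested and no p-value was calculated. JUP encodes γ-catenin (plakoglobin), which the study followed as an epithelial marker.

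Desmosomes are the junctions that tie the intermediate filaments of one epithelial cell to those of its neighbour. Desmogleins and desmocollins are the cadherins that bridge the gap between the cells, plakoglobin and the plakophilins are armadillo-repeat proteins that bind their tails, and desmoplakin links this plaque to the filaments. Cells that leave an epithelial state usually take their desmosomes apart, and plakoglobin, a close relative of β-catenin, is also found at adherens junctions and in the nucleus.

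Expression was given as FPKM, the number of fragments scaled by transcript length and by library size, rounded to 2 decimals. A change was the difference between 2 libraries in log2(FPKM + 1), a scale that understates the change of weakly expressed genes. Higher or lower is used as a call where this change was at least 2-fold and the FPKM was at least 1 in either library, and the genes that met this minimum are called expressed below. The inferred depth was between 15800000 and 18100000 fragments per library. Where an approximate counting error is given, it covers the sampling of fragments at that depth and not the variation between cultures. In RNA from bulk cultures, fewer cells expressing a gene and less RNA per cell cannot be told apart.

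The cell line label was checked with marker genes. The mesenchymal genes VIM and CD44 were abundant, with an FPKM of 1629.38 to 2053.39 for VIM and of 154.04 to 218.74 for CD44, and SNAI2 was between 2.59 and 4.48. Of the genes that should be low or absent, ESR1 (0 to 0.04), PGR (0.01 to 0.03) and CDH1 (0.24 to 0.39) were near 0, whereas EPCAM (2.26 to 4.70) and ERBB2 (13.16 to 21.36) were detected in every library.

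The promoters of 4 members are shown because JUP and DSP had the highest changes among the members with a window in the reference table, and DSG2 and DSC2 are cadherin genes of the same cluster whose levels and changes differed. Each is the RefSeq window of 250 bases before to 50 bases after a transcription start in GRCh38.p14, written 5′ to 3′ on the gene's strand. Capitals mark matches, on either strand, to CACCTG (an E-box bound by the SNAI and ZEB repressors), GGGCGG (a GC box) or AACCGG (the core of the Grainyhead-like motif). Matches to different motifs do not overlap in these windows, and some GC boxes of DSP overlap each other. The JUP window is chr17:41786662-41786961 on the minus strand, DSP is chr6:7541421-7541720 on the plus strand, DSG2 is chr18:31497927-31498226 on the plus strand and DSC2 is chr18:31102372-31102671 on the minus strand.
JUP: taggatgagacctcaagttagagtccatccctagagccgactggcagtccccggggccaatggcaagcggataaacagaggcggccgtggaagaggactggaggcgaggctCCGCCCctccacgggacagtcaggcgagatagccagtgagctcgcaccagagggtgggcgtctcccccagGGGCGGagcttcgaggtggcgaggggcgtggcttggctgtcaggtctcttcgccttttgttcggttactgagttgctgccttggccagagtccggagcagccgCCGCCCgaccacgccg
DSP: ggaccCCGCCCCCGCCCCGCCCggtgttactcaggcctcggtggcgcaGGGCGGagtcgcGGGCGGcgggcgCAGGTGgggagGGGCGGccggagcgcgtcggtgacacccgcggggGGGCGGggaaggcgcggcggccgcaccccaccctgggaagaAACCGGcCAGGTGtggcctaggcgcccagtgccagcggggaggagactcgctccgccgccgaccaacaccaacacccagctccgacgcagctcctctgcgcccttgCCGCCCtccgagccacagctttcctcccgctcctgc
DSG2: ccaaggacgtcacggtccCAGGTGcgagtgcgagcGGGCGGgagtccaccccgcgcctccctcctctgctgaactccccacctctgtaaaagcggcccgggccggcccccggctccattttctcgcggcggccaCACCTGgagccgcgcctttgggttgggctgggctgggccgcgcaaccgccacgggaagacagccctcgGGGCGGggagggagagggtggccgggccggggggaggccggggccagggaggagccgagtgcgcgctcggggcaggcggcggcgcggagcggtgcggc
DSC2: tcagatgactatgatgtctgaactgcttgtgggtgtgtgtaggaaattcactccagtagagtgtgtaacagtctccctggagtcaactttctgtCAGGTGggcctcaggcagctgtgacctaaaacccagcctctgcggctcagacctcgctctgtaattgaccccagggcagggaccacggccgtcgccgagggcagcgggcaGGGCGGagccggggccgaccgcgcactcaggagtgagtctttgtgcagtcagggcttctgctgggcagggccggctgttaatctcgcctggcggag
The JUP window held 3 GC boxes, the nearest one upstream lying 69 bases before the start, and no E-box. A further window of JUP, from a downstream start, held E-boxes 54 and 43 bases before that start. The DSP window held 8 GC boxes, 2 E-boxes and 1 Grainyhead-like core, which lay 92 bases before the start. DSG2 had 2 E-boxes and 2 GC boxes, and DSC2 had 1 of each. Over all 35116 windows of this length, 20.6% held CACCTG, 45.0% held GGGCGG and 7.23% held AACCGG. Of the 10 windows of members, which belong to 7 genes, 4 held an E-box, 8 a GC box and 2 a Grainyhead-like core. A match of letters is a description and not a bound site.

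The members spanned a wide range of expression, shown in the plot of FPKM by library. PKP4 was the most abundant, with an FPKM between 32.51 and 52.42. DSG2 followed with 20.87 to 30.98, and in each library it was below PKP4 and above PKP2, which was between 12.68 and 20.74. JUP ranged from 3.02 to 18.40 and exceeded PKP2 in the 100 nM 48 h library (12.87 against 12.68) and the 200 nM 48 h library (18.40 against 17.30). DSP (2.41 to 4.72), DSC2 (1 to 2.49), PKP3 (1.07 to 3.08) and PPL (0.24 to 1.35) were lower, and DSC2 and PKP3 changed places between libraries. DSC3 (0.03 to 0.07) and PKP1 (0 to 0.01) were close to the limit of detection. With no replicates, the order of genes whose ranges overlap cannot be resolved.

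**Figure D1:**
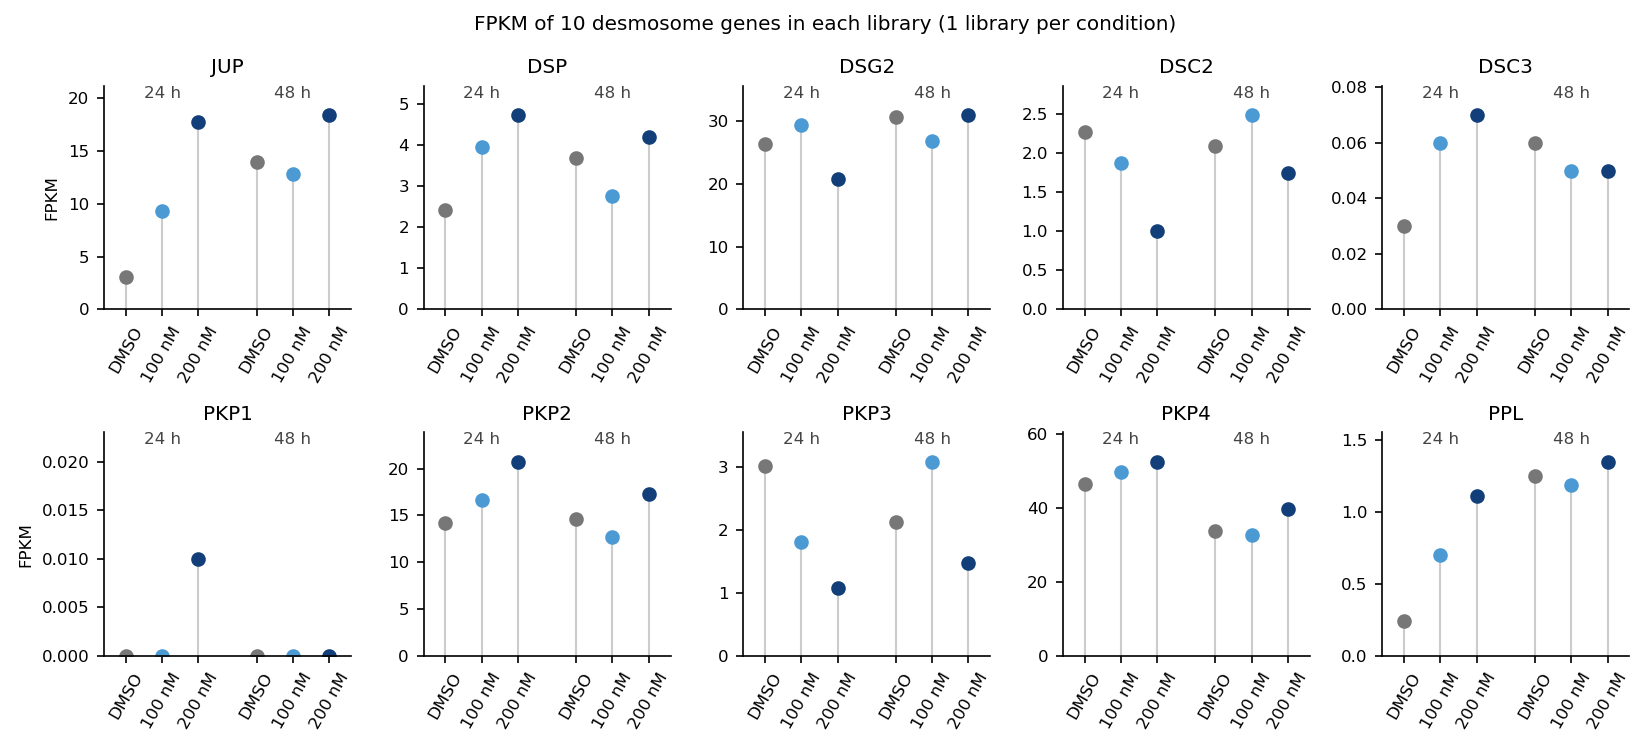
FPKM (linear axis from 0, with a scale of its own in each panel) of the 10 members, 1 panel per gene and 1 point per library, for DMSO (grey), 100 nM (light blue) and 200 nM (dark blue) PCI-24781 after 24 h (left) and 48 h (right). JUP is at 3.02 in the DMSO 24 h library and between 9.27 and 18.40 in the others.

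Before the comparisons, the control libraries were set against each other, because the DMSO 24 h library is the reference of both 24 h comparisons. DMSO 48 h against DMSO 24 h gave a 2-fold call of higher for 2.49% of 11490 expressed genes and of lower for 0.131%. Among the members, JUP was called higher, 1 of the 8 that were expressed, and none was lower. At 1.5-fold the call covered 8.49% (higher) and 1.94% (lower) of all expressed genes, and JUP and PPL were higher. Both 24 h comparisons and this control comparison share the DMSO 24 h library, so their values are not independent, and time in culture cannot be told apart from a property of that 1 library. An exchange of the labels of the DMSO libraries was not tested, and under it every change against DMSO would refer to the control of the other time. PKP4 was at 46.38 in DMSO 24 h, beside 49.64 and 52.42 in the treated 24 h libraries. It was at 33.70 in DMSO 48 h, beside 32.51 and 39.55 in the treated 48 h libraries. JUP was at 3.02 in DMSO 24 h, beside 9.27 and 17.78, and at 13.92 in DMSO 48 h, beside 12.87 and 18.40.

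The armadillo gene JUP (NCBI Gene ID 3728, chr17:39910859-39942964 on the minus strand, hg19) had an FPKM of 3.02 in DMSO 24 h, 9.27 in 100 nM 24 h and 17.78 in 200 nM 24 h. After 48 h the values were 13.92 in DMSO, 12.87 in 100 nM and 18.40 in 200 nM. The DMSO 24 h library was thus the lowest and the 5 other libraries lay between 9.27 and 18.40. Against DMSO 24 h, JUP rose by 1.35 on the log2 scale at 100 nM (3.07-fold in FPKM) and by 2.22 at 200 nM (5.89-fold), with approximate counting errors of 0.10 and 0.09. At 48 h the changes against DMSO were -0.11 at 100 nM and 0.38 at 200 nM, neither of them a call, with a counting error of 0.07. DMSO 48 h was itself 1.89 above DMSO 24 h (4.61-fold in FPKM). The JUP level at 200 nM differed by 0.05 between 48 h and 24 h, so the larger change at 24 h goes with the lower DMSO value at that time. When the 24 h libraries were set against DMSO 48 h instead, a choice made after the values were seen, the change was -0.54 at 100 nM and 0.33 at 200 nM, and no member was called.

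JUP was among the genes furthest from 0 in the comparisons with the DMSO 24 h library. With 200 nM for 24 h, 38 of 11660 expressed genes (0.326%) had a change at least as high, and at 100 nM 24 h there were 52 of 11475 (0.453%). In DMSO 48 h against DMSO 24 h, 20 genes (0.174%) were as far. At 48 h, 4.6% of expressed genes were as high as JUP at 200 nM. These shares describe single libraries and are not tests.

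β-Catenin (CTNNB1), the closest relative of plakoglobin, served as a yardstick. Its FPKM was 100.24, 92.80 and 84.16 in DMSO, 100 nM and 200 nM after 24 h, and 99.69, 105.51 and 96.76 after 48 h. Its changes against DMSO were -0.11 and -0.25 in the 24 h pair of doses, and 0.08 and -0.04 in the 48 h pair. JUP therefore stood at 3.01%, 9.99% and 21.1% of the CTNNB1 FPKM in the 24 h libraries and at 14.0%, 12.2% and 19.0% in the 48 h libraries. In every library the cells held more transcript of β-catenin than of plakoglobin per unit of length.

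The plakophilins, armadillo proteins that cluster desmosomal cadherins and recruit desmoplakin, did not move as a group. PKP2 (5318, chr12:32943680-33049780, minus strand), the plakophilin of simple epithelia and heart, had an FPKM of 14.14, 16.68 and 20.74 in DMSO, 100 nM and 200 nM at 24 h. Its 48 h values were 14.58, 12.68 and 17.30. The 200 nM library was the highest of the 3 at both times, with changes of 0.52 at 24 h and 0.23 at 48 h that were below the call. At 100 nM the changes were 0.22 and -0.19. The counting errors were 0.05 to 0.06.

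PKP3 (11187, chr11:392599-404908, plus strand), which is broadly expressed in epithelia, showed the opposite order at 24 h. Its FPKM was 3.01 in DMSO, 1.81 in 100 nM and 1.07 in 200 nM. At 48 h it was 2.12, 3.08 and 1.48. The 200 nM library was the lowest at both times, and the 100 nM library was the highest at 48 h but not at 24 h. The changes at 100 nM and 200 nM were -0.51 and -0.95 after 24 h, and 0.39 and -0.33 after 48 h, with counting errors of 0.13 to 0.14. The 24 h change at 200 nM was the lowest of any member in the 4 comparisons with DMSO (2.81-fold lower in FPKM, about 52 fragments against 153). In that comparison 1.68% of expressed genes were at least as low. The ratio of PKP2 to PKP3 FPKM was 4.70, 9.22 and 19.4 after 24 h and 6.88, 4.12 and 11.7 after 48 h, so the ratio was highest at 200 nM at both times.

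PKP4 (8502, chr2:159313392-159537941, plus strand), also known as p0071, is found at both desmosomes and adherens junctions. It had an FPKM of 46.38, 49.64 and 52.42 after 24 h and of 33.70, 32.51 and 39.55 after 48 h. Every 48 h value was below every 24 h value, and the difference between the DMSO libraries was -0.45. Against DMSO of the same time its changes stayed between -0.05 and 0.22. PKP4 supplied 66.9% to 73.0% of the summed plakophilin FPKM, PKP2 22.3% to 29.7% and PKP3 1.44% to 6.38%. PKP1 (5317, chr1:201252580-201302121, plus strand), the plakophilin of stratified epidermis, was listed at 0 in 5 libraries and at 0.01 in 200 nM 24 h, about 1 fragment. An FPKM of 0.031 to 0.035 would correspond to 3 fragments, so no change of PKP1 was detectable at this depth.

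The plakins connect the plaque to keratin or vimentin filaments. DSP (1832, chr6:7541808-7587133, plus strand), which encodes desmoplakin, had an FPKM of 2.41 in DMSO 24 h, 3.95 in 100 nM and 4.72 in 200 nM. After 48 h the values were 3.69 in DMSO, 2.76 in 100 nM and 4.18 in 200 nM. DMSO 24 h was the lowest of the 6 libraries, and 200 nM was the highest at each time. The changes at 100 nM and 200 nM were 0.54 and 0.75 after 24 h, and -0.32 and 0.14 after 48 h, with a counting error of 0.07, and none reached a 2-fold call. DMSO 48 h was 0.46 above DMSO 24 h. At 200 nM 24 h, 8.43% of expressed genes had a change at least as high as DSP.

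PPL (5493, chr16:4932508-4987136, minus strand) encodes periplakin, a plakin of the desmosomal plaque and the cornified envelope. Its FPKM was 0.24, 0.70 and 1.11 after 24 h and 1.25, 1.19 and 1.35 after 48 h. As for JUP, the lowest value was in DMSO 24 h, with about 27 fragments against 76 to 136 elsewhere. The change at 200 nM 24 h was 0.77 on the log2(FPKM + 1) scale, although the FPKM itself was 4.63-fold higher, because the pseudocount dominates at this level. At 100 nM 24 h the FPKM stayed below the minimum in both libraries. At 48 h the changes were -0.04 and 0.06. DMSO 48 h was 0.86 above DMSO 24 h (5.21-fold in FPKM).

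Of the desmosomal cadherins, DSG2 (1829, chr18:29077967-29128971, plus strand), the desmoglein present in all desmosome-bearing tissues, had an FPKM of 26.44, 29.44 and 20.87 after 24 h and of 30.69, 26.88 and 30.98 after 48 h. The value at 200 nM 24 h was the lowest and those of the other 5 libraries lay between 26.44 and 30.98. The changes at 100 nM and 200 nM were 0.15 and -0.33 after 24 h, and -0.18 and 0.01 after 48 h, with a counting error of 0.04. DSG2 made up 91.4% to 95.1% of the FPKM summed over DSG2, DSC2 and DSC3.

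DSC2 (1824, chr18:28645940-28682395, minus strand) encodes the widely expressed desmocollin. Its FPKM was 2.27, 1.87 and 1 after 24 h and 2.10, 2.49 and 1.75 after 48 h. The 200 nM library was the lowest at each time. The change at 200 nM 24 h was -0.71 (2.27-fold lower in FPKM) with a counting error of 0.11, and the other changes against DMSO were between -0.19 and 0.17. DSC3 (1825, chr18:28569331-28622781, minus strand), a desmocollin of stratified epithelia, had an FPKM of 0.03, 0.06 and 0.07 after 24 h and of 0.06, 0.05 and 0.05 after 48 h. These values correspond to about 4 to 8 fragments, so no difference in DSC3 could be resolved. The ratio of DSG2 to DSC2 FPKM was 11.6, 15.7 and 20.9 after 24 h and 14.6, 10.8 and 17.7 after 48 h.

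**Figure D2:**
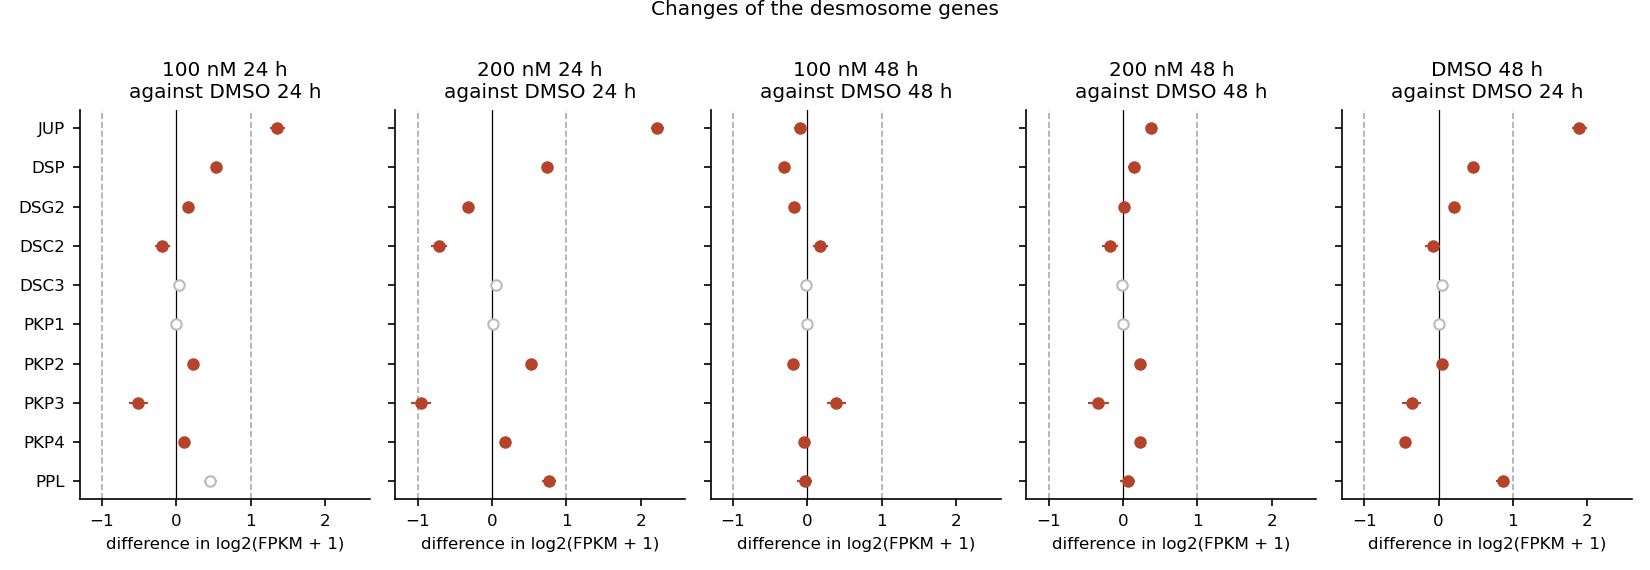
Change in log2(FPKM + 1) of the members in the 4 comparisons with DMSO and between the DMSO libraries, 1 point per member and comparison. Open circles mark members below the FPKM minimum, bars on the filled points are the approximate counting error and dashed lines mark a 2-fold change. JUP reaches 2.22 at 200 nM 24 h and 1.89 between the DMSO libraries, and at 48 h every member lies between -0.33 and 0.39.

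Counted over the list, the 2-fold call was met by JUP alone. At 100 nM 24 h, 1 of 7 expressed members was higher and none lower, where the same rule called 1.35% of all expressed genes higher and 0.131% lower. For 200 nM 24 h it was 1 of 8 and none, against 4.47% and 1.48%. At 48 h no member was called at either dose, and the background was 0.0608% higher and 0.408% lower at 100 nM and 0.206% higher and 0.06% lower at 200 nM. A single gene of 7 or 8 is too few to set against these percentages.

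With a threshold of 1.5-fold, JUP was again the only call at 100 nM 24 h, where 5.54% of expressed genes passed as higher and 1.25% as lower. In the 200 nM 24 h library JUP, DSP and PPL were higher and DSC2 and PKP3 were lower, 3 and 2 of 8 members, beside 12.5% and 7.58% of all expressed genes. None was called at 48 h, where the background was 0.504% and 1.75% at 100 nM and 1.53% and 0.463% at 200 nM for higher and lower.

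The median change over all 10 members was 0.12 (100 nM) and 0.11 (200 nM) after 24 h, and over all 16623 genes it was 0.013 and 0.027. At 48 h the median of the members was -0.05 at 100 nM and 0.04 at 200 nM, beside -0.006 and 0.009 over all genes. Expressed members with a positive change numbered 5 of 7, 5 of 8, 2 of 8 and 6 of 8 in this order. Those with a negative change numbered 2, 3, 6 and 2. Over all expressed genes, 51.6%, 51.2%, 47.2% and 51.0% had a positive change. The members are too few to set against these shares. The median over expressed members was 0.15 (100 nM) and 0.35 (200 nM) after 24 h, beside 0.012 and 0.014 over all expressed genes. After 48 h it was -0.08 and 0.10, beside -0.011 and 0.005. At 200 nM 24 h the expressed members ranged from -0.95 for PKP3 to 2.22 for JUP. The histogram of all expressed genes places the members by their change.

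**Figure D3:**
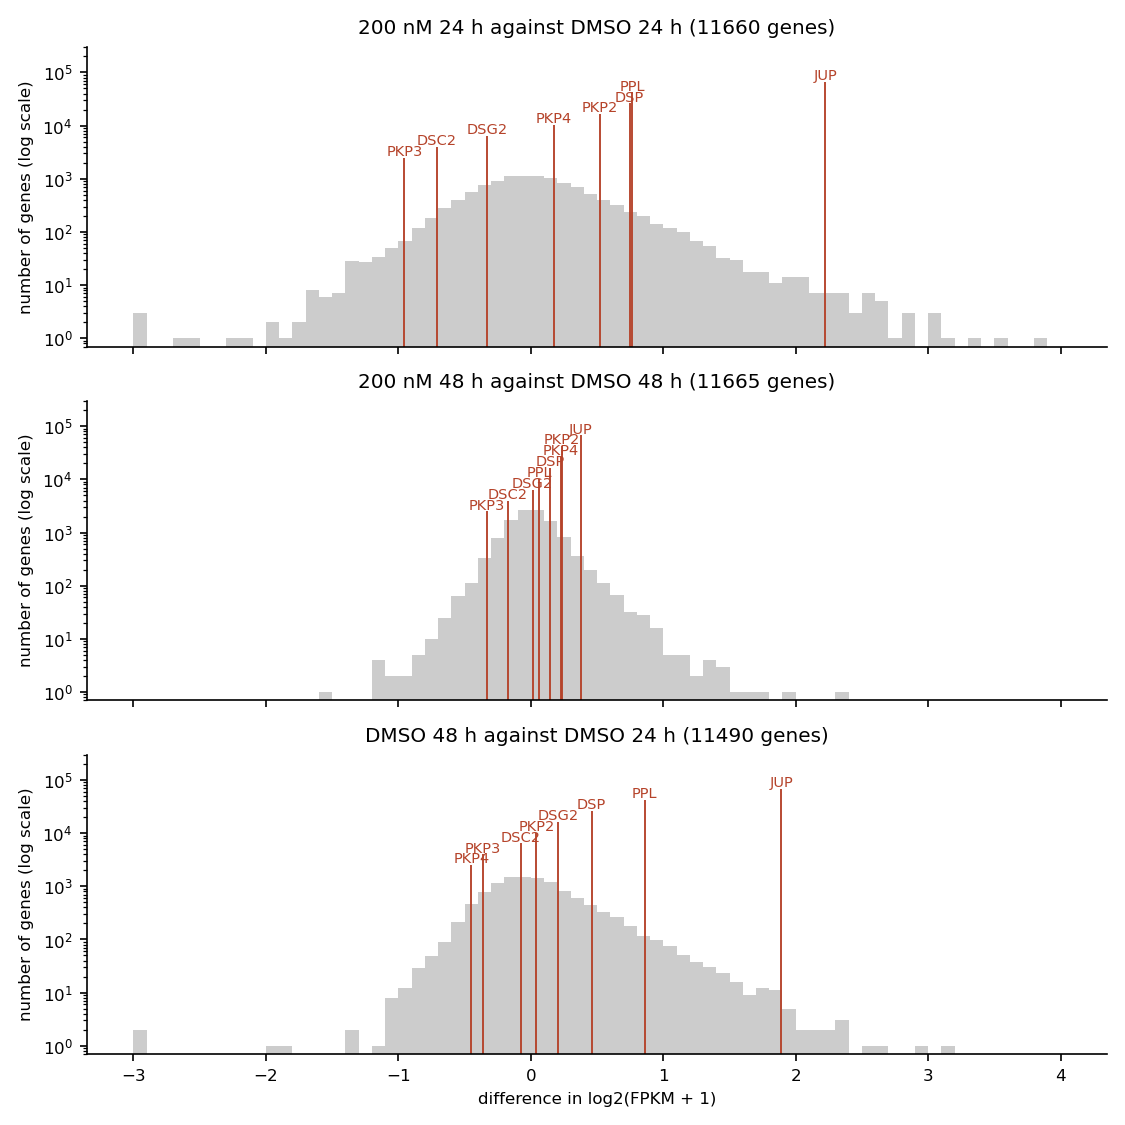
Number of expressed genes (log scale) by change in log2(FPKM + 1) in 3 comparisons, with the expressed members as labelled lines whose height has no meaning, and with values beyond the axis placed in the end bins. JUP lies far to the right at 200 nM 24 h (2.22) and between the DMSO libraries (1.89). At 200 nM 48 h it lies less far to the right (0.38), where 4.6% of expressed genes were at least as high.

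The dose comparison within a time does not use a DMSO library. At 24 h, 200 nM against 100 nM gave 0.87 for JUP, 0.21 for DSP, 0.30 for PKP2, -0.44 for PKP3, -0.48 for DSG2 and -0.52 for DSC2. At 48 h the same comparison gave 0.48, 0.46, 0.42, -0.72, 0.20 and -0.34 for these genes. JUP, DSP and PKP2 were thus higher and PKP3 and DSC2 lower at the higher dose at each time, and DSG2 was lower at 24 h and higher at 48 h. PPL (0.31 at 24 h and 0.10 at 48 h) and PKP4 (0.077 and 0.275) were also higher at each time. None reached 2-fold on the log2(FPKM + 1) scale.

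The genes around JUP were looked at after its values were seen. On the hg19 coordinates of the files, 14 other genes lay within 200 kb of JUP, and 8 of them were expressed. At 200 nM 24 h the changes of those 8 were between -0.83 for CNP, a phosphodiesterase gene, and 0.30 for P3H4, the gene next to JUP. P3H4 had an FPKM of 8.26, 8.66 and 10.41 after 24 h and of 10.45, 9.58 and 10.96 after 48 h. The keratin genes KRT9, KRT16 and KRT17, which lie on the other side, had an FPKM of at most 0.21. In the cadherin cluster on chromosome 18, DSC1 (0.02 to 0.28) and DSG3 (0.12 to 0.24) lie between DSC2 and DSG2 and were below an FPKM of 1 in every library.

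**Figure D4:**
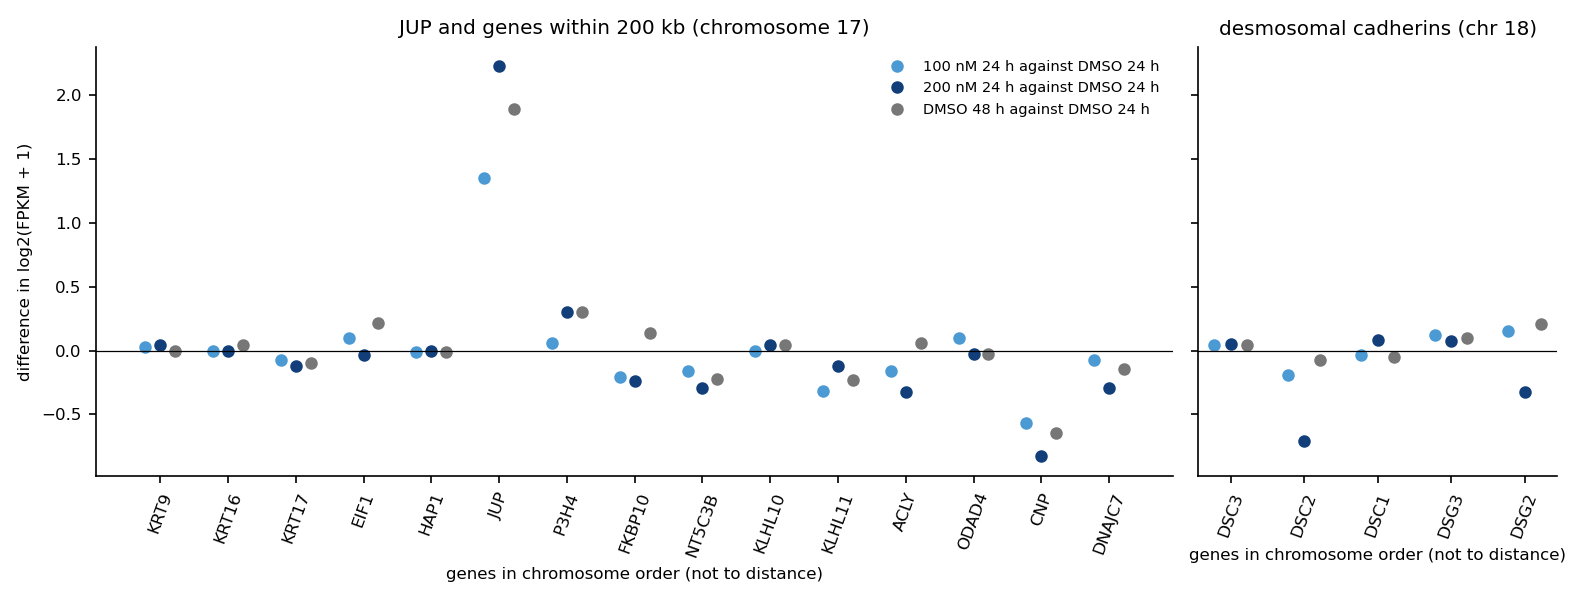
Change in log2(FPKM + 1) at 100 nM 24 h (light blue) and 200 nM 24 h (dark blue), and in DMSO 48 h (grey), all against DMSO 24 h, for JUP and the 14 other genes within 200 kb (left) and for the desmosomal cadherin genes of chromosome 18 (right), in chromosomal order and not to distance. JUP is at 1.35, 2.22 and 1.89, and its neighbours lie between -0.83 and 0.31.

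Genes with the pattern most like each member were found from the mean absolute difference of centred log2(FPKM + 1) over the 6 libraries among 10810 genes that reached an FPKM of 1 in all of them. For JUP these were KLRC2 (0.117), SLC27A1 (0.172) and SLC29A4 (0.175). KLRC2 has near-identical paralogs between which reads may be split, so its values are uncertain. For DSP the nearest was RABGAP1L (0.028), for PKP2 NME7 (0.022), for PKP3 NHERF2 (0.030), for PKP4 DCAF16 (0.021), for DSG2 REEP3 (0.028) and for DSC2 BDH2 (0.020). The distances for JUP were larger than for the other members compared, but a distance was not scaled by the range of the gene. That range in log2(FPKM + 1) was 2.27 for JUP and 0.55 to 0.98 for the others. PPL, DSC3 and PKP1 were not compared, since they were below an FPKM of 1 in some library.

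Related junction genes were described by lists. Of the other desmosome genes, 5 of 7 were found among the named genes (DSG1 and DSG4 were not). The most abundant was PERP, a tetraspan protein of desmosomes. PERP had an FPKM of 28.27, 31.01 and 26.37 after 24 h and of 32.97, 27.78 and 34.13 after 48 h. Of the adherens junction and armadillo genes, all 14 were analysed, led by CTNNA1 (α-catenin) with 181.12, 188.35 and 198.42 after 24 h and 219.39, 230.96 and 220.99 after 48 h. None of the genes of these lists was called at 2-fold in the 4 comparisons with DMSO.

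The hemidesmosome genes anchor epithelial cells to the matrix rather than to each other, and all 9 were analysed. CD151, a tetraspanin partner of laminin-binding integrins, had an FPKM of 145.96, 164.42 and 165.61 after 24 h and of 195.22, 183.05 and 206.03 after 48 h. Their median change was 0.35 (100 nM) and 0.45 (200 nM) after 24 h, then -0.09 and 0.02 after 48 h, and it was 0.74 between the DMSO libraries. No gene was called at 2-fold against DMSO, whereas ITGB4 (the β4 integrin) was called higher between the DMSO libraries, at 22.34 after 48 h beside 10.00 after 24 h.

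Of the intermediate filament genes, 7 of 8 were found among the named genes (KRT14 was not), and none was called at 2-fold against DMSO. At 1.5-fold, 1 of 5 expressed genes, KRT19, was higher at 100 nM (0.59) and 200 nM (0.97) after 24 h, where the background was 5.54% and 12.5%, and it was also higher between the DMSO libraries (0.82). KRT8, chosen after its values were seen, had changes of -0.42 and -0.49 after 24 h, and the median over the 5 expressed genes was -0.15 and 0.10. VIM, the most abundant, had changes of -0.20 and -0.18 after 24 h, and of 0.02 and -0.32 after 48 h. Of 12 transcription and splicing regulators of the epithelial state, 11 were found among the named genes (GRHL2 was not). None of the 11 was called at 2-fold against DMSO. TP63, an epithelial transcription factor, was called higher in 200 nM 48 h against 200 nM 24 h, with an FPKM of 2.34 and 0.48. In that comparison 0.4% of expressed genes were at least as high. TP63 was also higher at 48 h than at 24 h in DMSO (1.71 and 0.41) and at 100 nM (1.62 and 0.60). Those changes, 0.94 and 0.71, were below the call. ZEB1 was the most abundant, at 50.02 to 61.73. Chosen after its values were seen, SNAI1, an E-box repressor, was at 0.29, 0.60 and 1.57 after 24 h and at 0.88, 0.68 and 1.99 after 48 h, with changes at 200 nM of 0.99 after 24 h and 0.67 after 48 h, and at 100 nM of 0.31 and -0.16. ZEB2, a repressor of the same kind, also chosen after its values were seen, had changes of -0.18 and -0.69 at 100 nM and 200 nM after 24 h, of 0.04 and -0.10 after 48 h, and of -0.35 between the DMSO libraries.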

How the data were processed

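RNA-seq libraries of MDA-MB-231 cells, 1 for each of 6 conditions, were compared from the FPKM values that the authors deposited. The authors calculated FPKM per gene and rounded it to 2 decimals. Per the submitters' processing notes, Bowtie2, RSEM and the hg19 build were used, with no versions or roles given. The files give 16623 genes by NCBI Gene ID with coordinates, and hold no counts, so no count test was run and no p-value was calculated. Names were taken by Gene ID from the RefSeq table of assembly GRCh38.p14, which matched 16585 genes and left 38 unnamed. Promoter windows are also from RefSeq GRCh38.p14, whereas gene coordinates are those of the files (hg19).

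Samples were grouped by the labels for treatment, dose and time. Each PCI-24781 library was compared with the DMSO library of the same time (4 comparisons), and DMSO 48 h with DMSO 24 h. Changes are differences in log2(FPKM + 1), and the call required a 2-fold change and an FPKM of 1 or more in either library. The calls were tried on simulated data drawn from the DMSO 24 h library with the sampling of fragments only. These data held no variation between cultures, so they do not show how often such variation would give a call. Depth was inferred from the spacing of low FPKM values of genes of 500 to 1500 bases, using 249 to 292 genes per library and transcript lengths of GENCODE release 29, and is approximate. For JUP, which had no RefSeq match there, its principal transcripts were used. Fragment numbers use the shortest transcript of each gene and are approximate.

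The members, the lists of related genes and the tests were chosen with earlier results of these data known. Named genes were all 10 members, CTNNB1, list genes called at 2-fold against DMSO, the most abundant gene of each list, and the 3 most similar genes per member. Alternatives tried were smaller pseudocounts (0.1, 0.01), no filter, an FPKM minimum of 1 in both libraries, TPM, scaling by median-of-ratios factors, and calls at 1.5-fold. DMSO 48 h as the reference at 24 h, the window around JUP, the class shares and the ratios were added after seeing the data. Some results for listed genes are not reported here. A planned comparison of protein sequences was not run, because no protein table was used here. Calculations were done in Python 3.11.15 with pandas 2.3.3 and numpy 2.4.6, and plots in matplotlib 3.10.9.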

Additional observations from a re-analysis of the deposited data

Results flagged for a closer look

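For 2 members the change at 100 nM PCI-24781 had opposite directions at 24 h and 48 h, each at least 0.25 in size on the log2(FPKM + 1) scale. DSP changed by 0.54 at 24 h and by -0.32 at 48 h. PKP3 changed by -0.51 at 24 h and by 0.39 at 48 h. How many of all expressed genes turned in this way at 100 nM was not counted. Among all expressed genes, most 2-fold calls after 24 h were increases (1.35%, beside 0.131% for decreases). After 48 h most were decreases (0.408%, beside 0.0608% for increases). These shares do not tell whether the same genes were called at both times. With 1 library per condition, neither difference between the times was tested. The 24 h values rest on the DMSO 24 h library, and the 48 h values on single DMSO and 100 nM libraries. Whether a property or the label of any of these libraries plays a part was not tested.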

How the results depend on the processing

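Median-of-ratios scaling, no filter on low values and the FPKM minimum applied to both libraries changed none of 48 counts of called members or listed genes each, and neither scaling moved the median of all genes by over 0.1. At 200 nM 24 h, 2 members (JUP and PPL) were higher with either smaller pseudocount (0.1 or 0.01) or TPM, and 3 were higher at 1.5-fold. Lower members there numbered 2 (DSC2 and PKP3) with both pseudocounts and at 1.5-fold, and 1 (PKP3) with TPM. The share of all expressed genes called with the smaller pseudocounts or TPM was not calculated. Counts of members and listed genes under those settings therefore have no background beside them and are not read as results about these genes. With DMSO 48 h as the reference, chosen after seeing the data, 0 members were higher at 100 nM and at 200 nM at 24 h. JUP then changed by -0.54 at 100 nM, the opposite direction, and by 0.33 at 200 nM, below the call. The median over all 10 members at 200 nM 24 h was 0.28 with a pseudocount of 0.1, 0.76 with 0.01 and 0.014 against DMSO 48 h, and at 100 nM 24 h it was -0.029 against DMSO 48 h. The median over expressed members was 0.11 without the filter, 0.17 with the filter in both libraries and 0.097 against DMSO 48 h at 200 nM 24 h, and -0.085 against DMSO 48 h at 100 nM 24 h. Of the hemidesmosome genes, 1 (DST) was higher at 200 nM 24 h with both pseudocounts and TPM. At 1.5-fold, 3 of 9 expressed were higher at each dose at 24 h, beside 5.54% (100 nM) and 12.5% (200 nM) of all expressed genes. At 100 nM 48 h, 1 was higher and 1 lower at 1.5-fold, beside 0.504% and 1.75%. Of the intermediate filament genes, 1 was higher at 100 nM 24 h at 1.5-fold and 1 at 200 nM 24 h at 1.5-fold and with a pseudocount of 0.01. Of the adherens junction genes, 1 (ARVCF) was higher at 200 nM 48 h with a pseudocount of 0.01. Of the regulators, 1 was higher at 200 nM 24 h with a pseudocount of 0.1, TPM or 1.5-fold and 2 with 0.01. At 200 nM 48 h 1 was higher with both pseudocounts and at 1.5-fold, and 1 (ZEB2) was lower at 200 nM 24 h with both pseudocounts and at 1.5-fold. Of the regulators, 5 were expressed at 200 nM 24 h and 6 at 200 nM 48 h. The 1.5-fold call covered 12.5% (higher) and 7.58% (lower) of all expressed genes at 200 nM 24 h. At 200 nM 48 h it covered 1.53% (higher). Such small counts of listed genes are too few to set against these shares. The cause was not tested beyond the construction of each alternative. No paired analysis was possible because there is 1 library per condition, and for the same reason no library could be left out within a group. At about 15800000 to 18100000 fragments, differences in DSC3 and PKP1 were not detectable.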
